A study of Homo sapiens with 4 samples.

Results

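Complement is a cascade of serum proteins that marks foreign or damaged surfaces, and it can be started by the classical, lectin or alternative route. All routes meet at C3, the central component, whose larger fragment binds covalently to surfaces. Most complement proteins in blood come from the liver, but many epithelial cells make some of them, and nucleated cells carry membrane regulators that protect them from their own complement. Described here are 8 genes of this system, among 20372 genes of the deposited table, that were chosen by name. These are the proteases and components C1R, C1S, C3 and CFB, the soluble regulator CFI, and the membrane regulators CD46, CD55 and CD59. The symbol CFB has 2 lines on chromosome 6, and the line with the identifier ENSG00000243649, which GENCODE v44 also names CFB, was used. The other line had no count in any library.

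The cells were TPC1, an established line from a human papillary thyroid carcinoma that carries the CCDC6-RET rearrangement, grown in DMEM with 10% FBS. They received BLU6864, a RET inhibitor, for 6 h or 24 h, and 2 RNA-seq libraries were available per time. In the labels the 24 h libraries are called a re-analysis and the 6 h libraries are not. Any difference that this marks cannot be told apart from the time. For all libraries the labels give a dose of 100 µM and single-end reads of 50 bases, whereas the methods give 100 nM and paired-end reads of 100 cycles. Every library came from 1 cell line under the inhibitor, and vehicle libraries were not analysed here, so the time in culture and the time on the inhibitor cannot be told apart.

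Total counts were between 23917056 and 27457040 per library. Spearman correlations of the counts were at least 0.998 within a time and at most 0.941 between times. Of the thyroid markers, PAX8 was abundant at 20519 to 21345 normalized counts per time, TG and FOXE1 were detected, and NKX2-1 and TSHR had no count in any library, which allows at most 3 counts each. Keratins KRT7, KRT8, KRT18 and KRT19 were present, whereas EPCAM and CDH1 had at most 11 counts. The white blood cell markers PTPRC, LYZ, CD52, TYROBP and CD3E had at most 5 counts in any library, although CD68, CD14, CSF1R and FCER1G were detected.

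Counts were normalized by TMM and tested for a difference between the times by the quasi-likelihood method of edgeR, over 12876 genes with sufficient counts. A gene is called higher or lower where the log2 fold change is over 0.5 in size and the unadjusted P is under 0.01, and the P after Benjamini-Hochberg adjustment is given beside it. The log2 fold change (log2FC) is that of 24 h over 6 h. By this rule 4 of the 8 genes rose, where 17.4% of all genes tested did, and 1 fell, where 17.7% did, so that 5 were called against 35.1% of all genes. C3, C1R, C1S and CFI rose, CFB fell, and the changes of CD46, CD55 and CD59 were smaller than the cutoff. The median log2FC of the 8 genes was 0.96, against 0.0029 over all genes tested. CFI entered the test only through its counts at 24 h, so its call could go only one way. Without it, 3 of 7 rose and 1 fell, with a median of 0.36. The libraries of the 2 times did not overlap in any of the 8 genes, nor in 81.8% of all genes tested. The late libraries lay above the early ones in 5 of the 8 genes (41.0% of all genes) and below in 3 (40.8%). These counts and medians are a description, since the genes were chosen by name with earlier results known.

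**Figure D1:**
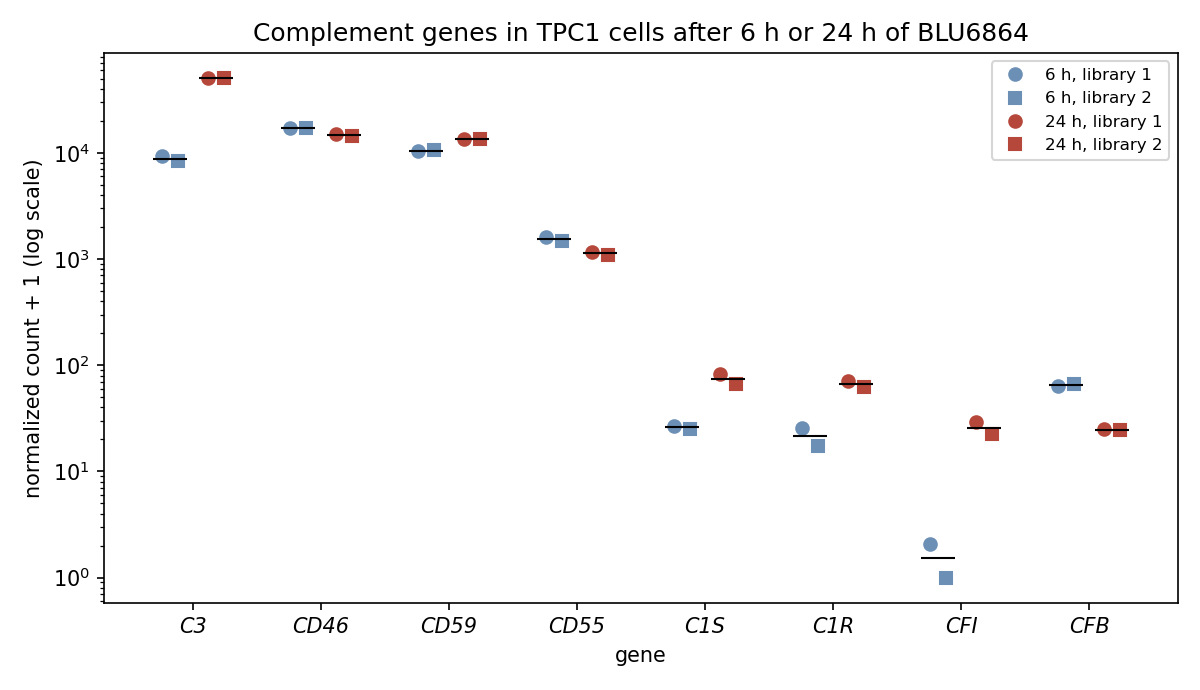
Normalized counts plus 1 (log axis) of the 8 complement genes in each of the 4 libraries, with circles for library 1, squares for library 2, blue for 6 h and red for 24 h, and black bars for the mean of a time. C3 moved from a mean of 8817 to 50564 normalized counts and CFB from 64.4 to 23.6, while CD46, CD55 and CD59 stayed within a log2FC of 0.5.

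C3 (ENSG00000125730), on chromosome 19 of hg19 from 6677715 to 6730573, encodes the component that is cleaved by the convertases of every route. It had 9301 and 8332 normalized counts at 6 h, compared with 50402 and 50725 at 24 h. Both 24 h libraries were far above both 6 h libraries, and the means were 8817 ± 685 (SD, n = 2) at 6 h and 50564 ± 228 (SD, n = 2) at 24 h. C3 had a log2FC of 2.52 (standard error 0.0880) and, by edgeR, an adjusted P of 3.82e-19. The gene took 0.0360% and 0.0324% of all counts at 6 h, compared with 0.191% and 0.190% at 24 h. Its position overlaps that of GPR108 by 649 bp, and GPR108 had a log2FC of 0.24. In bulk RNA, more RNA per cell and more cells with the RNA cannot be told apart.

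C1R (ENSG00000159403) and C1S (ENSG00000182326) encode the serine proteases that join C1q in the first complex of the classical route, in which C1r activates C1s and C1s cleaves C4 and C2. They lie 9176 bp apart on chromosome 12 of hg19, C1S from 7096351 to 7178336 and C1R from 7187513 to 7245203. C1R had 24.8 and 16.3 normalized counts at 6 h and 70.7 and 61.3 at 24 h. C1S had 25.9 and 24.0 at 6 h and 81.7 and 65.2 at 24 h. Both genes were therefore expressed at a low level that did not overlap between the times. C1R had a log2FC of 1.69 (standard error 0.267), with an edgeR adjusted P of 3.91e-06. For C1S it was 1.55 (standard error 0.246), with an edgeR adjusted P of 4.16e-06. Their 95% confidence intervals, 1.14 to 2.24 for C1R and 1.05 to 2.06 for C1S, overlapped over most of their length. The ratio of C1S to C1R per transcript length was 0.844 and 1.19 at 6 h and 0.934 and 0.860 at 24 h. The 24 h ratios thus lay within the range of the 6 h ratios. C1S overlaps the positions of LPCAT3 and EMG1, whose log2FCs were 0.28 and -0.04, and C1R overlaps C1RL, at 0.30. These neighbours had between 4092 and 5795 counts over the 4 libraries, far above C1R and C1S, and the part of their reads in the counts of C1R and C1S was not tested.

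CFB (ENSG00000243649), on chromosome 6 of hg19 from 31895475 to 31919861, encodes factor B, the protease that binds C3b to form the alternative route's C3 convertase. It had 62.6 and 66.2 normalized counts at 6 h and 23.9 and 23.4 at 24 h, so both late libraries were below both early ones. The means were 64.4 ± 2.54 (SD, n = 2) and 23.6 ± 0.393 (SD, n = 2). For CFB the log2FC was -1.44 (standard error 0.249), with an edgeR adjusted P of 1.37e-05. CFB was the only gene among the 8 that was called lower. Its listed position overlaps that of C2 by 17975 bp and covers that of the other line named CFB. C2 had between 5 and 18 counts per library, with a log2FC of -0.85 (standard error 0.468, edgeR adjusted P = 0.112). Since the counting program and its treatment of shared reads are not given in the sources used here, the level of CFB is uncertain.

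C3 and CFB, whose products form one convertase, therefore changed in opposite directions. The ratio of C3 to CFB per transcript length was 70.3 and 59.6 at 6 h and 998 and 1028 at 24 h. No library of one time came near those of the other.

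CFI (ENSG00000205403), on chromosome 4 of hg19 from 110661852 to 110723335, encodes factor I, the serine protease that cleaves C3b and C4b in the presence of a cofactor such as CD46. It had raw counts of 1 and 0 at 6 h and 28 and 22 at 24 h. The RNA was thus at the edge of detection at 6 h and low at 24 h. The ratio of the summed counts, scaled by library size, was 48.5, with a 95% counting interval from 8.31 to 1952. That interval covers counting error only. The fitted log2FC of 5.29 (standard error 0.737, edgeR adjusted P = 5.86e-07) rests on the single read at 6 h. It was 7.66 without the first 6 h library and 4.36 without the second, and CFI was called higher in both fits.

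The membrane regulators were well expressed at both times, with log2FC values within 0.5 of zero. CD46 (ENSG00000117335), on chromosome 1 of hg19 from 207925402 to 207968858, encodes the membrane cofactor of factor I. It had 17129 and 17154 normalized counts at 6 h and 14894 and 14326 at 24 h. The log2FC was -0.23, with a 95% confidence interval from -0.388 to -0.0733 and an edgeR adjusted P of 0.0102. The adjusted P was 0.0547 without the first 24 h library and 0.139 without the second.

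CD55 (ENSG00000196352), on the same chromosome from 207494853 to 207534311, encodes decay-accelerating factor, which takes C3 and C5 convertases apart. It had 1615 and 1480 normalized counts at 6 h and 1171 and 1091 at 24 h, and the times did not overlap. The log2FC was -0.45, with a 95% confidence interval from -0.606 to -0.299 and an edgeR adjusted P of 7.60e-06. The estimate lies close to the cutoff of 0.5. It was -0.50 without the first 24 h library and -0.51 without the second 6 h library, and CD55 was called lower in both of those fits.

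CD59 (ENSG00000085063), on chromosome 11 of hg19 from 33719807 to 33757991, encodes protectin, which blocks assembly of the membrane attack complex. It had 10303 and 10742 normalized counts at 6 h and 13505 and 13538 at 24 h. The log2FC was 0.36, with a 95% confidence interval from 0.208 to 0.516 and an edgeR adjusted P of 0.000142. The change of CD59 did not reach the cutoff on size, and its sign was opposite to that of CD46 and CD55. An adjusted P under 0.05 without a cutoff on size was met by all 8 genes, 5 upward and 3 downward, against 33.0% and 32.6% of all genes tested, or 65.6% in either direction. The intervals of CD59 and of both other regulators did not overlap. The ratio of CD59 to CD55 per transcript length was 2.19 and 2.49 at 6 h and 3.96 and 4.26 at 24 h, with no overlap. The ratio of CD46 to CD55 was 8.34 and 9.11 at 6 h and 10.0 and 10.3 at 24 h.

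**Figure D2:**
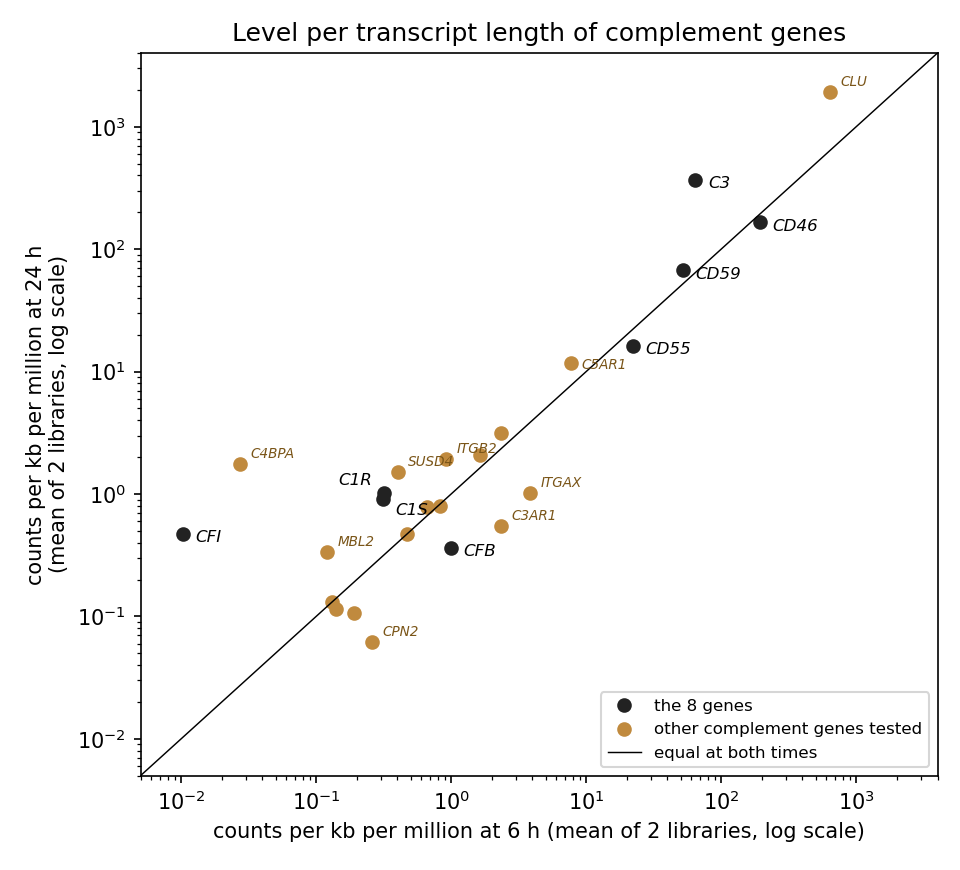
CPM per kb of transcript at 24 h (vertical, log axis) against 6 h (horizontal, log axis), each the mean of 2 libraries, for the 8 genes (black) and the other complement genes tested (brown), and the line of equal levels. With the longest transcript C3 goes from 64.4 to 370 and CD46 from 194 to 166, an order that depends on the length used, and CFB falls below the line, from 0.994 to 0.365.

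Levels of different genes were compared as CPM per kb of the longest protein-coding transcript, and the order of the levels depends on that choice. At 6 h, CD46 was highest among the 8 genes with 194 ± 0.202 (SD, n = 2), followed by C3 with 64.4 ± 5.01, CD59 with 52.1 ± 1.54 and CD55 with 22.3 ± 1.37. CFB had 0.994 ± 0.0392, C1R 0.316 ± 0.0926 and C1S 0.310 ± 0.0169, and CFI was lowest with 0.0103 ± 0.0146. On this length the levels of C1R and C1S did not differ beyond their spread. At 24 h, C3 was highest with 370 ± 1.67, above 98.9% of the 12566 genes tested that have a transcript length, after 91.2% at 6 h. CD46 followed with 166 ± 4.55, CD59 with 66.9 ± 0.118 and CD55 with 16.3 ± 0.813. C1R with 1.01 ± 0.102 and C1S with 0.913 ± 0.145 again did not differ beyond their spread on this length, and they were above CFI with 0.471 ± 0.0876 and CFB with 0.365 ± 0.00607. The ratio of C3 to CD46, CD55 and CD59 together was 0.253 and 0.226 at 6 h and 1.46 and 1.51 at 24 h. With the median length of the protein-coding transcripts, C3 was above CD46 at both times. The 6 h levels were then 481 for C3, 344 for CD59 and 208 for CD46, and the 24 h levels were 2758, 443 and 178. C1R was then above C1S, with 1.33 against 0.536 at 6 h and 4.27 against 1.58 at 24 h.

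The promoters of CFB, C1R and CFI are shown because 1 fell and 2 rose, as the 250 bases before the first start listed by RefSeq for GRCh38.p14, which is another build than that of the counts. Promoters of 6 of the 8 genes were matched by symbol, without C3 and C1S. Capitals mark matches on either strand to the interferon-gamma activated site (TTCNNNGAA), the interferon-stimulated response element (GAAA, any 2 bases and GAAA, or its reverse complement), the C/EBP element (TTGCNNCAA or TTGNNGCAA), the NF-kB consensus, and the TATA box (TATAAA or TTTATA).
CFB, plus strand, chr6:31945845-31946094: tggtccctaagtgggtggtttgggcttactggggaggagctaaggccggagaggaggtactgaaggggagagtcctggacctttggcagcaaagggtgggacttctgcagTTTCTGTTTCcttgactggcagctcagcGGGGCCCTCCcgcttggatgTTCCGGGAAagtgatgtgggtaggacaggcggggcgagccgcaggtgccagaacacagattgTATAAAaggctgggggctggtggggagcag
C1R, minus strand, chr12:7092446-7092695: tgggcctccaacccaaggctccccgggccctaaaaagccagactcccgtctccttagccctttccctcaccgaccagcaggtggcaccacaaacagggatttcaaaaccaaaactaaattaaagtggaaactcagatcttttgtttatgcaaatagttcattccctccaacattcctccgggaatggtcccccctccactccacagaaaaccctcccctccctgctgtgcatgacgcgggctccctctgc
CFI, minus strand, chr4:109802000-109802249: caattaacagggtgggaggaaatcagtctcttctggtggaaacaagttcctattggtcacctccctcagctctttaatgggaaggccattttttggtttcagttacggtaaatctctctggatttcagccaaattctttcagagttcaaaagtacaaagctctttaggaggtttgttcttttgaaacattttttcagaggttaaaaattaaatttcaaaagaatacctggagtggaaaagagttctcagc

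The CFB promoter held 4 matches that do not overlap each other. They were 1 response element from -140 to -131, 1 match to NF-kB from -112 to -103, 1 activated site from -92 to -84, and 1 TATA box from -30 to -25, counted from the base before the start as -1. Of 27326 promoters with 250 bases, 3.07% held the response element, 9.59% the NF-kB match, 6.78% the activated site, 11.1% the TATA box, and 1.66% the C/EBP element. The CD59 promoter held 1 activated site, from -128 to -120. None of the 5 motifs was found in the windows of C1R, CFI, CD46 or CD55, which says only that these letters are not there. These matches are sequence descriptions and were not tested as sites.

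**Figure D3:**
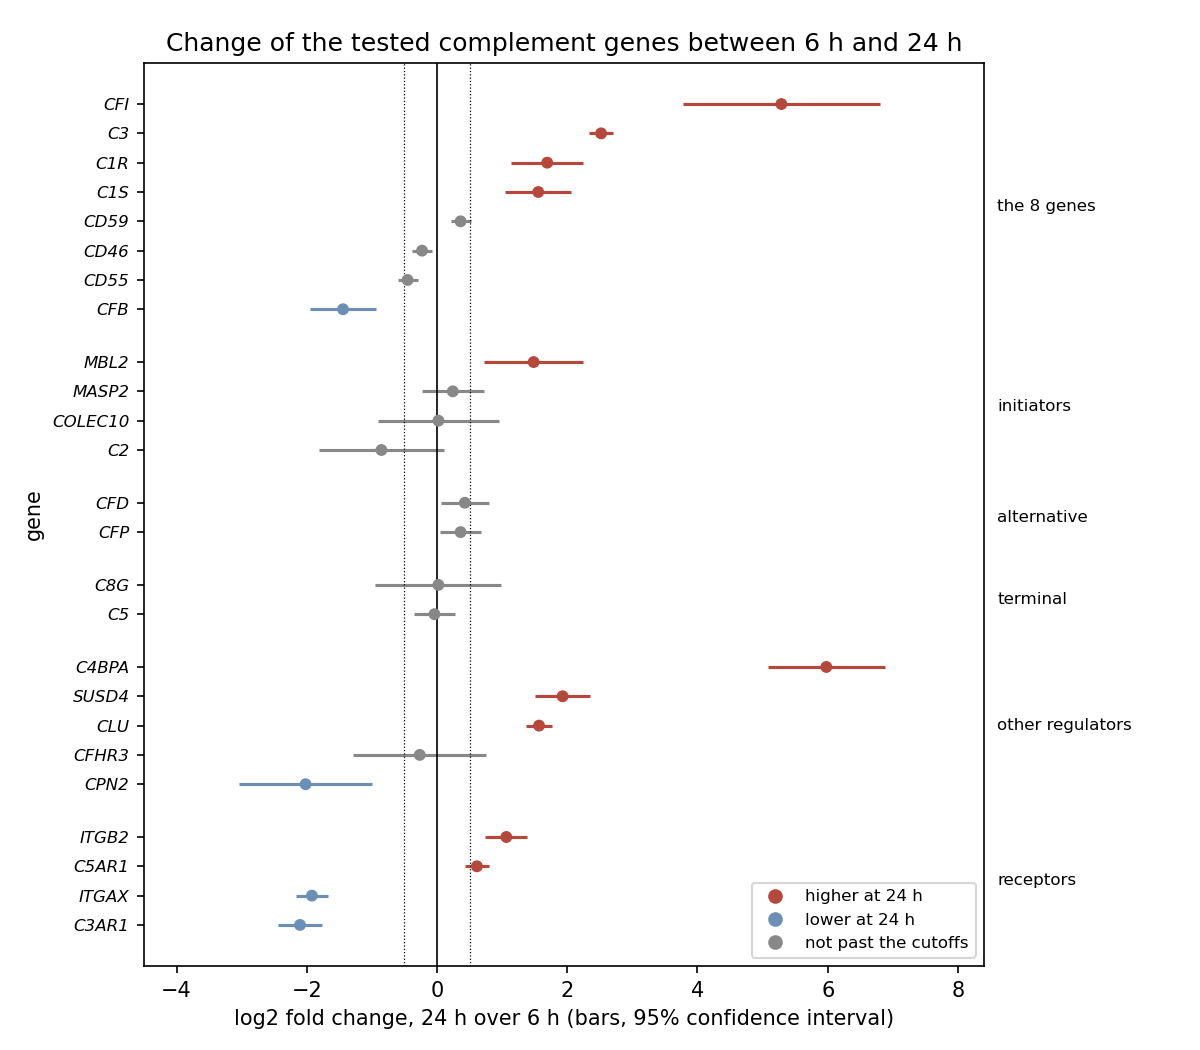
Log2 fold change of 24 h over 6 h (horizontal) for 25 complement genes tested, grouped by role, with bars for the 95% confidence interval of edgeR's estimate, red for higher, blue for lower and grey for genes not past the cutoffs, which the dotted lines mark on the size. The widest intervals belong to genes with few counts, such as CFI and CPN2.

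The rest of the pathway was read from lists of 48 other complement genes, which were drawn up with earlier results of these data known. Of these, 15 had no count in any library and 17 were tested, of which 6 rose and 3 fell, against 17.4% and 17.7% of all genes tested. The median log2FC of these 17 genes was 0.24. With at least 10 counts in every library, fewer were tested, and 4 rose and 2 fell, while 2103 and 2099 of all genes did. The numbers of genes tested under that filter are not given here, so these counts cannot be set against a share of all genes. C4BPA and MBL2 entered the test only through their 24 h counts, and CPN2 only through its 6 h counts, so their calls could go only one way.

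Upstream of C3, the C1q chains C1QA, C1QB and C1QC had no count in any library, and a count of 0 allows at most 3 counts, or 0.110 to 0.124 CPM (counts scaled to a common library total). SERPING1, the C1 inhibitor that blocks both C1r and C1s, had 1 count in 1 library at 24 h and none in the others. The RNAs of C1R and C1S were thus detected without those of their C1q partner, and with almost none of that of their inhibitor. C4A had between 4 and 8 counts and C4B at most 1, although these near-identical copies can share reads. MBL2, a lectin that starts the lectin route, rose from 14.0 and 8.63 normalized counts to 24.9 and 38.0. Its log2FC was 1.48 (edgeR adjusted P = 0.00104), but its unadjusted P was 0.0109 with DESeq2, and it was also lost without the second 24 h library or the second 6 h library, with log2FCs of 1.15 and 1.16. MASP2, the lectin route protease, had a log2FC of 0.24 and did not pass. CFD and CFP, factor D and properdin of the alternative route, had log2FCs of 0.43 and 0.36, under the cutoff on size.

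Of the terminal components, C5 had a log2FC of -0.04 (95% confidence interval -0.356 to 0.277). C8G, with between 8 and 14 counts per library, had a log2FC of 0.02 (95% confidence interval -0.948 to 0.990). C6, C7, C8A, C8B and C9 had at most 2 counts in any library.

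Of 16 regulators listed outside the 8 genes, 5 were tested. Of these, 3 rose and 1 fell, against 17.4% and 17.7% of all genes tested. CLU, or clusterin, which binds the terminal complex and is also a general extracellular chaperone, had 50082 and 42632 normalized counts at 6 h and 141687 and 132920 at 24 h. Its log2FC was 1.57 (standard error 0.0974, edgeR adjusted P = 1.15e-13). C4BPA, the alpha chain of C4b-binding protein, had raw counts of 3 and 0 at 6 h and 112 and 99 at 24 h, a ratio of 68.2 with a 95% counting interval from 23.0 to 333. Its fitted log2FC was 9.74 without the first 6 h library and 4.95 without the second. C4BPB, its beta chain, had no count in any library. SUSD4, a membrane inhibitor of complement, rose with a log2FC of 1.93 (edgeR adjusted P = 4.34e-09). CPN2, a subunit of the carboxypeptidase that inactivates anaphylatoxins, had raw counts of 20 and 20 at 6 h and 2 and 8 at 24 h and was called lower, with a log2FC of -2.02. It was lost without the first 24 h library, at -1.37, and was at -3.27 without the second.

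Among 4 receptor genes tested, 2 rose and 2 fell, against 17.4% and 17.7% of all genes tested. C3AR1, the receptor for the C3a fragment, fell from 216 and 204 to 48.8 and 48.7 normalized counts. Its log2FC of -2.10 (standard error 0.164, edgeR adjusted P = 1.30e-11) was opposite in sign to that of C3. C5AR1, the C5a receptor, rose from 477 and 455 to 731 and 693 normalized counts, a log2FC of 0.61 (edgeR adjusted P = 1.08e-06). ITGAX, the alpha chain of complement receptor 4, fell with a log2FC of -1.92, whereas ITGB2, its beta chain, rose with 1.06. ITGAM, the alpha chain of complement receptor 3, had at most 8 counts, and CR1 had 6 counts in each 6 h library and none at 24 h.

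Cytokines of the interferon and interleukin 6 families are known to induce several complement genes in epithelial and liver cells through STAT, IRF, NF-kB and C/EBP factors. Of 12 genes of such factors, all tested, 3 rose and none (0) fell by the cutoffs, against 17.4% and 17.7% of all genes tested. IRF7 rose by 1.35, IRF9 by 0.74 and STAT2 by 0.55 on the log2 scale. IRF9 had an unadjusted P of 0.0214 with DESeq2, and it was lost without the first 24 h library or the first 6 h library, at 0.57 and 0.61. STAT2 was under the cutoff on size, at 0.48, without the second 6 h library. STAT3, IRF2 and IRF1 did not pass, with log2FCs of 0.32, 0.13 and -0.09. The genes of NF-kB and C/EBP factors did not pass either, with log2FCs from -0.48 for NFKB2 to 0.43 for RELA.

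Acute phase genes, which hepatocytes express together with complement, were also read. Of the 13 listed, 6 were tested, 4 rose and none (0) fell, against 17.4% and 17.7% of all genes tested. HP and FGB entered the test only through their 24 h counts, so their calls could go only one way. SAA1 rose from 692 to 5278 mean normalized counts, a log2FC of 2.93 (edgeR adjusted P = 4.59e-21). SAA2, a close copy of SAA1 that can share its reads, rose by 1.80 on the log2 scale. FGB had 1 count at 6 h and 40 at 24 h, a ratio of 38.8 with a 95% counting interval from 6.57 to 1569. Its fitted log2FC was 4.20 without the first 6 h library and 7.29 without the second. HP had between 6 and 19 counts per library and was lost with DESeq2, at an unadjusted P of 0.0547, and in 3 of the 4 fits without 1 library, at 1.10 to 1.40. SERPINA1 and LCN2 had log2FCs of -0.12 and -0.02 and did not pass. Of 7 hepatocyte markers, 1 was tested, F2, through its 24 h counts only, and it rose with a log2FC of 2.20. The value for F2 was 3.19 without the first 6 h library and 1.56 without the second. The 7 markers together summed to 18.4 and 9.59 normalized counts at 6 h and 67.7 and 47.7 at 24 h. ALB had at most 2 counts in any library and APOB none. The 9 white blood cell markers summed to 4908 and 4683 normalized counts at 6 h and 2688 and 2763 at 24 h, nearly all from CD68, which fell with a log2FC of -0.84. CSF1R, which entered the test only through its 6 h counts, fell too, at -2.15, and CD14 rose, at 0.95, of 4 tested. Of the epithelial markers, KRT7 rose, with a log2FC of 0.84, and KRT19 fell, with -1.59, while KRT8 and KRT18 were at -0.05 and 0.37 and did not pass. Of the thyroid markers, FOXE1 rose, with 0.84, and TG fell, with -1.09. The part of these marker changes in the complement results was not tested.

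The nearest genes by profile were sought as the smallest Euclidean distance between log2 CPM values over the 4 libraries, each gene centred on its mean, among genes with a mean of at least 100 normalized counts. For CFI, which had the largest rise among the 8 genes, they were OAS2, KCNJ13 and KCNJ16, at distances from 0.229 to 0.428. Their log2FCs were 3.63, 3.34 and 3.24, below the fitted 5.29 of CFI, which had raw counts of 1 and 0 at 6 h. The log2 CPM values include edgeR's default prior count, which shrinks the change of a gene with so few counts. Which genes lie nearest to CFI therefore depends on that prior count. For CFB the nearest genes were FKBP14, NREP and NDUFAB1, at distances from 0.0129 to 0.0450. Those of C3, which was added after its values were seen, were MYC, KIF12 and STC2, at distances from 0.0870 to 0.115. With 2 times and 4 libraries, these profiles differ in little more than the size of the change.

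**Figure D4:**
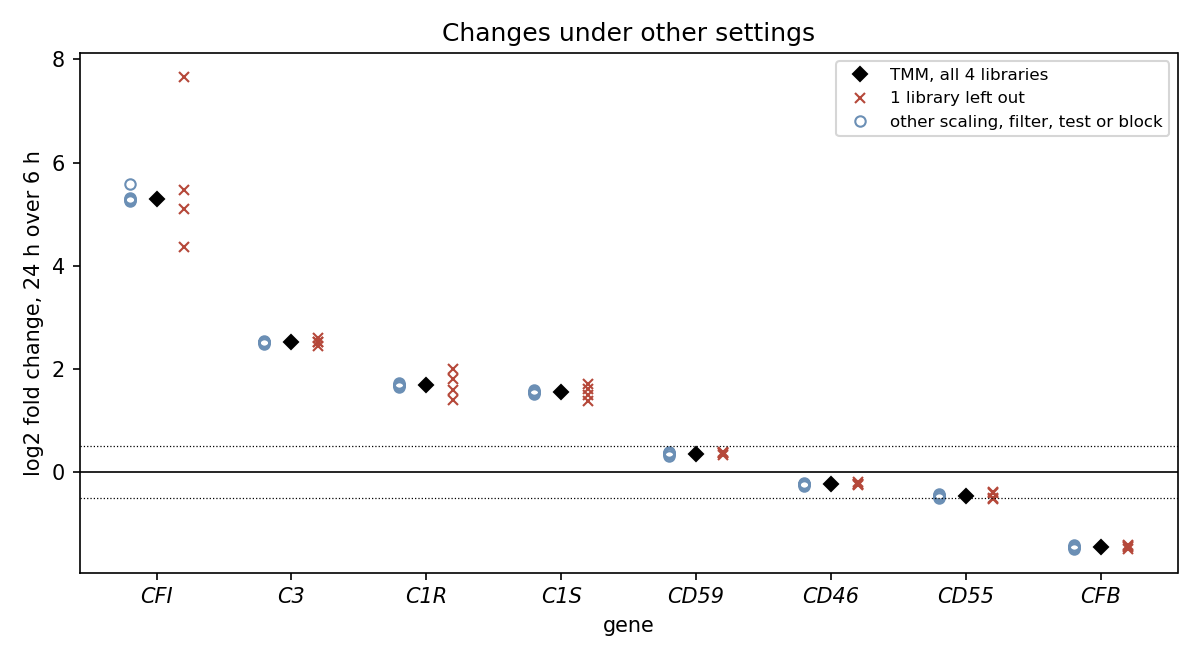
Log2 fold change of 24 h over 6 h (vertical) of each of the 8 genes with TMM and all libraries (black diamonds), with 1 library left out (red crosses), and with another scaling, filter, test or the replicate block (blue circles), and dotted lines at the cutoff of 0.5. Only CFI spreads widely, from 4.36 to 7.66, and only CD55 touches the cutoff, between -0.39 and -0.51.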

How the data were processed

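The authors aligned reads with STAR (version 2.3 in the submitters' processing notes, which name hg19) and deposited raw counts per gene for 4 libraries, without normalization. The paper's methods name a later version of STAR. The deposited table also holds a normalized signal, the count divided by a DESeq2 size factor, and the authors' own comparison, namely log2 fold changes, a Wald score and p-values, none of which was used. Counting program and strand setting are not given in the sources used here.

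The test was edgeR 4.0.16 (R 4.3.3) on raw counts, with filterByExpr, TMM and time as the single factor, and 12876 genes passed the filter. A standard error is the size of the log2 fold change over the square root of F. A normalized count is the raw count divided by the library's TMM-scaled size, itself taken as a multiple of the average size. Nothing says that libraries came from separate cultures, so P measures the spread between these libraries, which may be technical. The 2 libraries of a time differed beyond sampling noise (chi-square over its degrees of freedom, 6.67 for 24 h and 8.66 for 6 h). DESeq2 1.42.0 was an alternative test. Lengths came from GENCODE v44. Intervals of low counts are exact binomial ones and cover counting error only. Python 3.11.15 and matplotlib 3.10.9 made the plots.

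The members, the gene lists and the tests were chosen with earlier results of these data known. The genes named were the 8 members, every other complement gene past the cutoffs, up to 6 genes per other list past the cutoffs, and the 3 genes nearest in profile to the members with the largest rise and fall. Genes that did not pass are named to account for their lists, after their values were seen. Some genes of these lists are not reported here and are left out of the counts of their lists. The testing scripts were first tested on simulated data. There, the share of unchanged genes among calls by the fold and unadjusted P cutoffs exceeded the limit first set, which was then replaced by limits on the share of unchanged genes that were called and on false calls by adjusted P.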

Additional observations from a re-analysis of the deposited data

How the results depend on the processing

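The 8 genes kept their direction in every fit run. By an adjusted P under 0.05 in place of the cutoffs, CD46 at -0.23, CD55 at -0.45 and CD59 at 0.36 were also called, which makes 3 lower genes of the 8, and the calls over all genes became 4247 higher and 4196 lower. Leaving out 1 library at a time gave between 1 and 2 lower genes of the 8, with CD55 from -0.51 to -0.39, and in these fits the lone library of a time is assumed to vary like the others. With at least 10 counts in every library, CFI was not tested, and 3 of the other 7 genes rose and 1 fell. Over all genes 2103 then rose and 2099 fell, and the number tested is not given here. With no filter on low counts, 5 other complement genes were lower in place of 3 and 7 higher in place of 6, since more genes were tested. Over all genes 2331 were then lower and 2314 higher. Only genes without any count stayed untested, 15 of the 48 and 4039 of all 20372. DESeq2 called 4 of the 8 genes higher and 1 lower, against 2027 and 2114 of the same 12876 genes. Library size alone and upper quartile scaling moved the median of all genes to -0.040 and 0.033 and no call of the 8 genes. Over 24 other listed genes past the cutoffs, 245 values kept their call, 12 lost it and 0 reversed. The setting of adjusted P under 0.05 reused the same fit, so no call could be lost there. Genes that a filter left untested were not counted in this tally. With the median transcript length, the 24 h levels in CPM per kb were 2758 for C3, 443 for CD59, 178 for CD46, 25.8 for CD55, 4.27 for C1R, 1.58 for C1S and 0.383 for CFB, since the median is taken over transcripts of very different length.

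The replicate numbers occur at both times, but no source says that they pair the libraries, and the deviations of same-numbered libraries correlated at 0.0844 across genes. With the replicate number as a block, 4 of the 8 genes were higher and 1 lower, as without it, with 6 and 3 other complement genes, and 2283 and 2313 genes in all.

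Depth limits CFI, C1R, C1S and CFB, which had at most 82 counts in any library. With 2 libraries per time, outliers could not be tested.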
